A study of Drosophila melanogaster with 6 samples.

Results

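Of 18769 probe sets measured in Drosophila S2 cells, 78 (0.416%) read higher after knockdown of either of 2 insulator proteins than after control treatment, and these 78 are described here. A probe set is a group of array probes that together give 1 expression value for a transcript. A probe set was a member if all 4 knockdown arrays read above both control arrays, if its mean log2 value was at least 0.4 above the control mean in each knockdown, and if its highest group mean reached 6. The members were thus selected on these measured values, and each member's height over the control is a description and no finding. Both knockdowns were set against the same 2 control arrays, so a low reading on a control array raises both differences at once. The mirrored rule for transcripts lower in both knockdowns gives 39 probe sets.

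The series asked which genes CP190 and CG9740 regulate together. S2 is a cultured embryonic fly line with properties of hemocytes, the blood cells of the fly. All cells received RNA interference (RNAi), against CG9740 (2 arrays), against CP190 (2 arrays) or, as the control, against LacZ (2 arrays), a bacterial gene. Replicates are biological per the series design, every array started from 25 ng of amplified total RNA, and the dose and length of the RNAi treatment are not given in these sources. Bulk RNA cannot tell fewer cells with a transcript apart from less transcript per cell.

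Insulators are DNA elements that keep enhancers and chromatin states from acting on neighbouring genes. CP190 is a zinc finger protein of insulator complexes that does not choose its sites alone: it is brought to DNA by sequence-specific partners, and it also sits at centrosomes. CG9740 is the gene now called Ibf2 (insulator binding factor), whose product works together with that of its neighbour Ibf1 and recruits CP190. Genes that gain expression when insulator proteins are removed are of interest as candidates for genes that an insulator normally shields, although a change in RNA alone does not show that a protein acts at that gene.

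The RNAi targets were low in the arrays labelled for them, and neither is a member. Ibf2 (probe set 1639645_at) read 7.05 and 7.30 in CG9740 RNAi, against 9.30 and 9.64 in LacZ RNAi, a 4.90-fold fall (log2 -2.29, SE 0.14, limma adjusted p 0.00145). It read 9.33 and 9.52 in CP190 RNAi. Cp190 (1631940_s_at) read 9.71 and 9.72 in CP190 RNAi, against 11.81 and 11.92 in LacZ RNAi, a 4.42-fold fall (log2 -2.15, SE 0.11, limma adjusted p 0.000679). In CG9740 RNAi it read 11.80 and 11.54. Ibf1 (1630527_at), which lies next to Ibf2 on arm 3R, rose 1.88-fold in CG9740 RNAi, with 9.57 and 9.39 against 8.58 and 8.57 in LacZ RNAi (log2 0.91, SE 0.09, limma adjusted p 0.0248). In CP190 RNAi Ibf1 read 8.50 and 8.52, a log2 difference to LacZ RNAi of -0.07, and it is no member either. Leaving out any single array kept the call of Ibf2 (-2.46 to -2.12). That of Cp190 was lost only without CP190 replicate 1 (-2.14, limma adjusted p 0.0516). That of Ibf1 held only without CG9740 replicate 1 (0.82, limma adjusted p 0.0454) and was lost without CG9740 replicate 2 (1.0), either CP190 array (0.91 each), LacZ replicate 1 (0.91) or LacZ replicate 2 (0.90), at limma adjusted p from 0.0685 to 0.257.

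All values are on the log2 scale of RMA, in which 1 unit is a doubling, and array medians lay between 5.69 and 5.74. The brightest of 27 Bacillus control probe sets, which match no fly transcript, averaged 6.07, and a fold is given only where the lower group mean exceeds it. In 13 members the LacZ mean lay below that level. Of 19 probe sets for 18 hemocyte marker genes, 13 exceeded it, among them those of the clotting protein Hml and the extracellular peroxidase Pxn. The same held for 5 of 13 neuron, 1 of 7 muscle, 0 of 6 fat body and 5 of 7 germline marker probe sets. In both knockdowns limma called 0 marker probe sets, and none is a member. At an unadjusted p under 0.05, 7 of the 52 marker probe sets passed in CG9740 RNAi (13.5%, beside 8.59% of all probe sets), with 1 hemocyte and 1 neuron probe set higher and 3 hemocyte, 1 neuron and 1 germline probe sets lower. In CP190 RNAi 3 passed (5.77%, beside 8.57%), with 1 neuron probe set higher and 1 hemocyte and 1 fat body probe set lower. The mean over the 19 hemocyte probe sets was 7.70 and 7.55 in CG9740 RNAi and 7.65 and 7.83 in CP190 RNAi, against 7.85 and 7.73 in LacZ RNAi.

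Across the 78 members the difference to LacZ RNAi had a median of 0.63 with CG9740 knockdown (0.40 to 2.01) and 0.59 with CP190 knockdown (0.40 to 1.65), where all probe sets had medians of -0.02 and -0.01. In CG9740 RNAi 14 members reached a difference of 1, in CP190 RNAi 11 did, and 8 reached it in both. Most members differ by less: the smaller of the 2 differences was under 0.5 in 35 members and between 0.5 and 1 in another 35. The rule's separate conditions were met more widely. Of all probe sets, 1878 (10.0%) had all 4 knockdown arrays above both LacZ arrays. A mean difference of 0.4 was reached by 323 (1.72%) in CG9740 RNAi, by 307 (1.64%) in CP190 RNAi and by 170 in both.

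The 6 arrays did not contribute evenly to the set. The rule itself lets only a knockdown array be highest and only a LacZ array be lowest. The highest reading came from CG9740 replicate 2 in 59 members, from CP190 replicate 1 in 16 and from CP190 replicate 2 in 3. Over all probe sets these arrays were highest in 17.8%, 11.4% and 21.0%. CG9740 replicate 2 was highest in 43.8% of the 1878 with all 4 knockdown arrays above both LacZ arrays. The lowest came from LacZ replicate 2 in 66 members and from LacZ replicate 1 in 12, beside 18.3% and 15.2% of all probe sets. Among the 1878, LacZ replicate 2 was lowest in 60.9%. In 50 members CG9740 replicate 2 was on top and LacZ replicate 2 at the bottom. Relative to a member's mean over the 6 arrays, the median reading was 0.01 and 0.46 in CG9740 replicates 1 and 2, 0.27 and 0.10 in CP190 replicates 1 and 2, and -0.29 and -0.58 in LacZ replicates 1 and 2.

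Most members showed 1 order of replicates. CG9740 replicate 2 exceeded replicate 1 in 78 of 78 members, against 51.6% of all probe sets and 74.4% of the 1878 with all 4 knockdown arrays above both LacZ arrays. CP190 replicate 1 exceeded replicate 2 in 68 members (43.8% of all probe sets, 55.2% of the 1878), and LacZ replicate 1 exceeded replicate 2 in 66 (47.6% and 60.9%). All 3 orders held together in 59 members. The median size of these replicate differences among members was 0.46, 0.20 and 0.25. In 44 members LacZ replicate 1 was closer to the lowest knockdown array than to LacZ replicate 2. The part that single arrays play in the differences to LacZ RNAi was not tested beyond leaving arrays out, as follows.

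**Figure D1:**
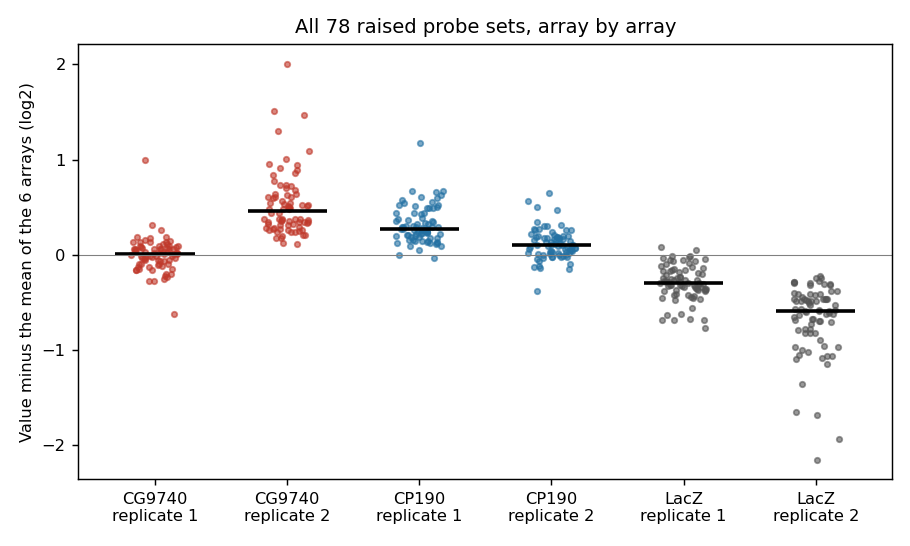
Readings of all 78 members on each array. The vertical axis is the log2 value minus that member's mean over the 6 arrays, each point is a probe set, and black bars are medians (0.01, 0.46, 0.27, 0.10, -0.29 and -0.58 from left to right). CG9740 replicate 2 lies highest and LacZ replicate 2 lowest.

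Applied without LacZ replicate 2 the rule gives 64 probe sets, of which 41 are among the 78, and without CG9740 replicate 2 it gives 42, all among the 78. Without LacZ replicate 1 it gives 279 and without CG9740 replicate 1 it gives 144, with 75 and 78 of the original members. Without CP190 replicate 1 or 2 it gives 63 or 108. With both CG9740 replicate 2 and LacZ replicate 2 left out, a choice made after seeing the data, 24 probe sets fit the rule and 13 of them are members. The difference in CG9740 RNAi changed by more than 1.5 times in 44 members without CG9740 replicate 2 and in 16 without CG9740 replicate 1. Without LacZ replicate 2 it did so in 22 members, and the difference in CP190 RNAi did so in 30. Without LacZ replicate 1 these were 12 and 19, and without CP190 replicate 1 or 2 the difference in CP190 RNAi changed that much in 9 or 1. Leaving out an array can only loosen the condition on single arrays. A member could thus fail only through its means, and counts above 78 are partly built in. Under the removal of each single array in turn, 23 members fit the rule every time. They include both Lgr4 probe sets, Ect3, GstD2, GstD5, PGRP-SB1, Kap-alpha3, alpha-Est3, St3, 1 trol probe set, mlt, IFT52, Tob, sPLA2, trk and CG10621. Of these, Lgr4 1635672_at, Ect3, PGRP-SB1, alpha-Est3, St3, Tob and sPLA2 no longer fit with CG9740 replicate 2 and LacZ replicate 2 both left out.

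Of the 78 members, 65 name a single gene, 1 names several and 12 name none, and the 65 cover 61 genes. The genes are taken below by what their products do. That grouping was made after the values were seen and carries no test. The first group, receptors and ligands, holds 3 probe sets of 2 genes.

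Lgr4, a leucine-rich repeat receptor coupled to G proteins, has 2 member probe sets and the largest difference in the set. Probe set 1635672_at read 7.85 and 9.29 in CG9740 RNAi and 8.45 and 7.97 in CP190 RNAi, against 7.49 and 5.63 in LacZ RNAi. The second, 1638557_at, read 8.39 and 9.78 in CG9740 RNAi and 8.89 and 8.50 in CP190 RNAi, against 7.94 and 6.38 in LacZ RNAi. Both probe sets show the same order of arrays, with LacZ replicate 1 near the lower knockdown arrays and LacZ replicate 2 far below. The mean differences of 1635672_at were 2.01 with CG9740 knockdown (4.02-fold) and 1.65 with CP190 knockdown (3.14-fold), and without LacZ replicate 2 they were 1.08 and 0.72. The ligand trunk (trk, 1623731_at), which activates the Torso receptor in the embryo, read 6.52 and 6.64 in CG9740 RNAi and 7.14 and 6.51 in CP190 RNAi, against 5.99 and 6.0 in LacZ RNAi. Its LacZ arrays lay close together, and its lowest knockdown array stood 0.51 above the higher of them.

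PGRP-SB1, a secreted peptidoglycan recognition protein that cleaves bacterial cell wall, was the only immune recognition gene in the set. It read 7.96 and 10.12 in CG9740 RNAi and 8.50 and 7.99 in CP190 RNAi, against 7.67 and 6.46 in LacZ RNAi. A single array, CG9740 replicate 2, stood far above the others: the mean difference in CG9740 RNAi was 1.98 (SD of the replicates 1.53, n = 2) and 0.90 without that array, and in CP190 RNAi it was 1.17. The PGRP family had 7 measured genes with 1 member, and its median differences were 0.01 with CG9740 knockdown and -0.07 with CP190 knockdown. The list of Toll and Imd immunity genes, 26 probe sets of 23 genes, held no member and had 0 calls by limma in each direction in both knockdowns.

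Detoxification and redox enzymes made up 9 members of 9 genes. GSTs of the Delta class (GstD), which couple glutathione to foreign compounds and lipid peroxidation products, gave 4 of them. GstD2 (1630258_at) read 7.53 and 8.92 in CG9740 RNAi and 8.22 and 7.68 in CP190 RNAi, against 6.85 and 6.53 in LacZ RNAi. GstD5 (1634152_at) read 8.04 and 8.81 in CG9740 RNAi and 8.27 and 7.90 in CP190 RNAi, against 7.35 and 7.10 in LacZ RNAi. In both genes every knockdown array stood clear of the LacZ arrays, by 0.68 for GstD2 and 0.55 for GstD5. The mean differences of GstD2 were 1.53 (2.90-fold) with CG9740 knockdown and 1.26 (2.40-fold) with CP190 knockdown, where the first was 0.84 without CG9740 replicate 2. Those of GstD5 were 1.20 (2.30-fold) and 0.86 (1.82-fold).

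GstD3 (1635701_at) and GstD1 (1628353_at) had smaller differences. GstD3 read 11.06 and 11.45 in CG9740 RNAi and 11.23 and 10.93 in CP190 RNAi, against 10.73 and 10.26 in LacZ RNAi. GstD1 read 11.04 and 11.57 in CG9740 RNAi and 11.20 and 10.98 in CP190 RNAi, against 10.91 and 10.43 in LacZ RNAi. In these LacZ replicate 1 came near the lowest knockdown array. Without LacZ replicate 2 the differences of GstD3 were 0.52 with CG9740 knockdown and 0.35 with CP190 knockdown, against 0.76 and 0.58 with all arrays.

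The esterase gene alpha-Est3 (1625354_at) read 5.91 and 7.28 in CG9740 RNAi and 6.73 and 6.34 in CP190 RNAi, against 5.82 and 5.04 in LacZ RNAi. St3, a sulfotransferase gene (1635800_at), read 7.53 and 8.57 in CG9740 RNAi and 8.18 and 7.73 in CP190 RNAi, against 7.20 and 6.54 in LacZ RNAi. Both follow the order of arrays seen in Lgr4, and the LacZ level of alpha-Est3 lies below the brightest Bacillus control, so it has no fold. St3 was 2.26-fold higher in CG9740 RNAi and 2.12-fold higher in CP190 RNAi, and without CG9740 replicate 2 its log2 difference in CG9740 RNAi was 0.66, against 1.18 with both arrays. A second St3 probe set, 1640790_at, was no member and had differences of -0.05 and -0.18. The other 3 members of this group are the cytochrome P450 genes Cyp12c1 and Cyp6t1 and Sod3, an extracellular superoxide dismutase, and their differences lay between 0.45 and 1.62. Sod3 (1636961_a_at) had a difference of 0.72 with CG9740 knockdown and 0.57 with CP190 knockdown, and 0.35 and 0.21 without LacZ replicate 2.

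**Figure D2:**
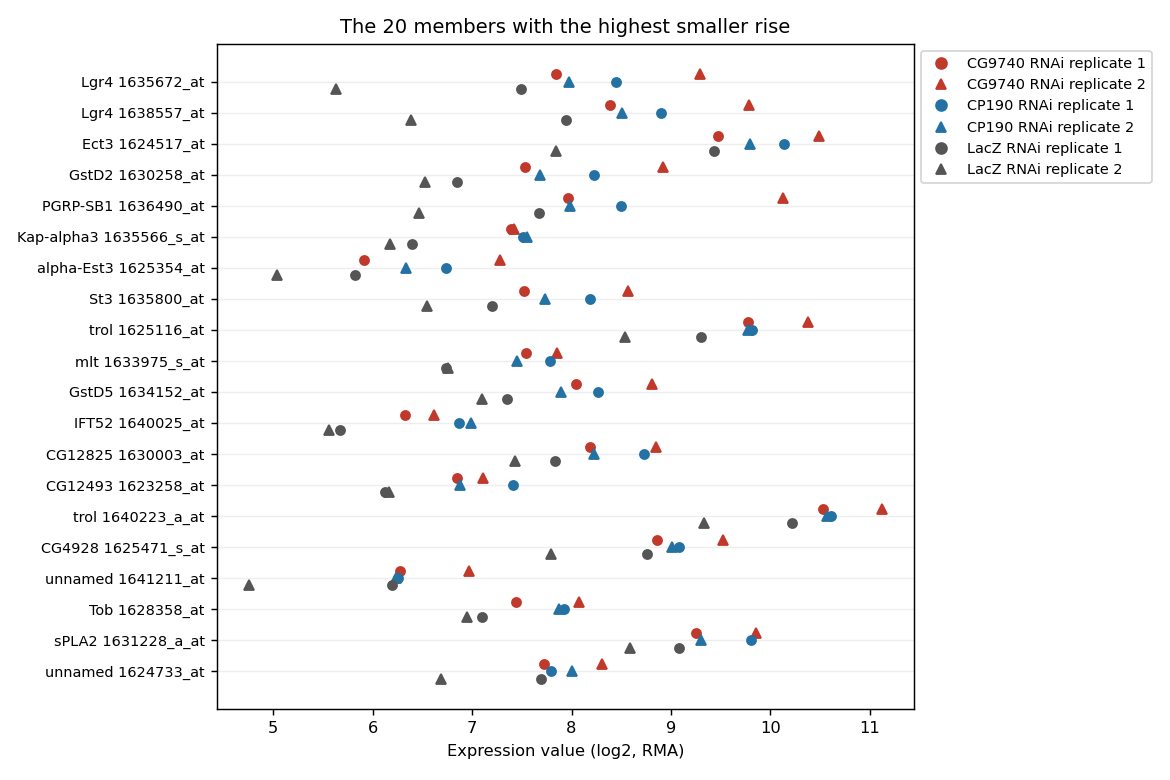
Readings of the 20 members with the highest value of the smaller of their 2 mean differences to LacZ RNAi. The horizontal axis is the log2 expression value, colours mark the RNAi groups (CG9740, CP190, LacZ from top to bottom in each line), and circles and triangles mark replicates 1 and 2. In most lines the CG9740 triangle lies to the right and the LacZ triangle to the left, while the LacZ points of mlt, CG12493, IFT52 and Tob lie closer together than those of the other lines.

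Genes of the matrix and of cell adhesion gave 5 members of 3 genes. Trol is the fly perlecan, a large heparan sulfate proteoglycan of basement membranes. Its probe set 1625116_at read 9.78 and 10.38 in CG9740 RNAi and 9.82 and 9.77 in CP190 RNAi, against 9.30 and 8.53 in LacZ RNAi. The mean difference was 1.16 with CG9740 knockdown (2.24-fold) and 0.88 with CP190 knockdown (1.84-fold), the second of which was 0.50 without LacZ replicate 2. Probe sets 1640223_a_at and 1641442_a_at are members too, with differences of 1.05 and 0.90 in CG9740 RNAi and 0.82 and 0.58 in CP190 RNAi. Without LacZ replicate 2 those in CP190 RNAi were 0.38 and 0.10.

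The array holds 8 probe sets for trol, and the other 5 did not share 1 pattern. Probe set 1628566_at read 7.11 and 7.11 in CG9740 RNAi and 7.08 and 7.15 in CP190 RNAi, against 7.26 and 7.48 in LacZ RNAi, so all 4 knockdown arrays lay below both LacZ arrays (-0.26 in each knockdown). Probe set 1640189_at read 7.45 and 7.43 in CG9740 RNAi and 7.81 and 8.20 in CP190 RNAi, against 7.39 and 7.19 in LacZ RNAi, with differences of 0.15 and 0.72. The remaining trol probe sets differed by 0.24 to 0.69 with CG9740 knockdown and by 0.27 to 0.73 with CP190 knockdown. In these and in 1640189_at all 4 knockdown arrays lay above both LacZ arrays, as in the members. The sources used here do not say which trol transcripts each probe set detects.

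Neuroglian (Nrg), an adhesion protein of the immunoglobulin superfamily, entered the set at its edge. Its member probe set 1636146_at read 9.16 and 9.41 in CG9740 RNAi and 9.81 and 9.59 in CP190 RNAi, against 8.93 and 8.83 in LacZ RNAi. The difference was 0.40 with CG9740 knockdown and 0.82 with CP190 knockdown. A second Nrg probe set, 1637463_a_at, read 8.37 and 8.53 in CG9740 RNAi and 9.04 and 9.12 in CP190 RNAi, against 8.34 and 8.05 in LacZ RNAi. It missed the rule through its CG9740 difference of 0.26, and its CP190 difference was 0.88. The last gene, slow, encodes a secreted protein of the tendon and muscle junction, and its differences were 0.85 with CG9740 knockdown (0.36 without CG9740 replicate 2 and 1.33 without replicate 1) and 0.42 with CP190 knockdown.

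**Figure D3:**
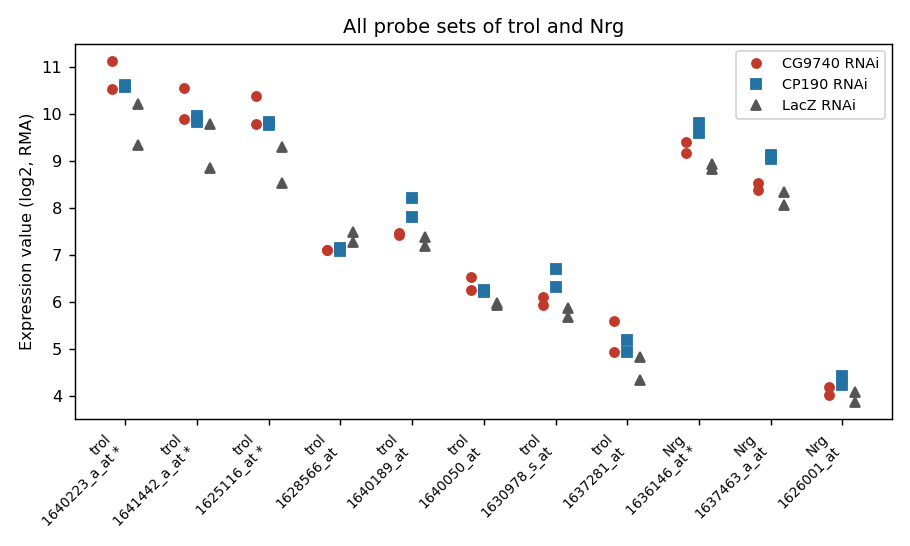
All probe sets of trol and Nrg on the array, ordered within each gene by their LacZ mean. The vertical axis is the log2 expression value, each point is an array, and asterisks mark members. In the starred probe sets all 4 knockdown arrays lie above both LacZ arrays, as the rule required. The same holds for trol 1630978_s_at, 1637281_at, 1640050_at and 1640189_at and for Nrg 1637463_a_at, which are no members. In trol 1628566_at the knockdown arrays lie below.

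Other probe sets of member genes were looked at as a whole. There are 21 that are no members, from 9 genes, and 15 of the 21 had means above LacZ RNAi in both knockdowns, against 32.1% of all probe sets. They share arrays, and may share transcripts, with the members, so they are no independent measurement. In 10 of the 21 all 4 knockdown arrays lay above both LacZ arrays, against 10.0% of all probe sets. AMPdeam, an enzyme that turns AMP into IMP, has 4 probe sets: the member had differences of 0.52 and 0.43, 1640932_s_at had 0.46 and 0.37, 1636030_s_at had 0.38 and 0.43, and 1631487_s_at had 0.08 and -0.04.

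Metabolic enzymes gave 10 members of 9 genes. Ect3, of the beta-galactosidase family, read 9.48 and 10.48 in CG9740 RNAi and 10.14 and 9.79 in CP190 RNAi, against 9.43 and 7.85 in LacZ RNAi. LacZ replicate 1 lay only 0.05 below the lowest knockdown array. Its mean differences of 1.34 and 1.33 (2.54-fold and 2.51-fold) were 0.55 and 0.53 without LacZ replicate 2. The phospholipase gene sPLA2 (1631228_a_at) read 9.25 and 9.86 in CG9740 RNAi and 9.81 and 9.30 in CP190 RNAi, against 9.08 and 8.59 in LacZ RNAi, a difference of 0.72 in each knockdown. Gnpnat, which acetylates glucosamine phosphate on the way to chitin and glycans, has 2 member probe sets. Their differences were 0.44 and 0.43 in CG9740 RNAi and 0.44 and 0.42 in CP190 RNAi, and another, 1626181_at, had 0.14 and 0.28.

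The remaining metabolic genes beside AMPdeam are CPT2 (carnitine palmitoyltransferase), pdgy (an acyl-CoA synthetase), Agxt (alanine-glyoxylate aminotransferase), BckdhA (a subunit of branched-chain ketoacid dehydrogenase) and QC (glutaminyl cyclase). Across all 10 metabolic members the median difference was 0.52 with CG9740 knockdown and 0.47 with CP190 knockdown. The regulators gave 6 members: Tob (an antiproliferative protein of the BTG family), the splicing factor mbl, the PAS domain kinase Pask, the autophagy protein TP53INP, the proteasome ATPase paralog Rpt3R and the Rab effector Rph. Tob (1628358_at) read 7.44 and 8.08 in CG9740 RNAi and 7.93 and 7.87 in CP190 RNAi, against 7.10 and 6.94 in LacZ RNAi. It is the regulator with the largest difference in CP190 RNAi, 0.88, and its difference in CG9740 RNAi was 0.74, or 0.42 without CG9740 replicate 2. The mbl gene has 6 probe sets. The member had differences of 0.53 and 0.49, or 0.20 and 0.16 without LacZ replicate 2. Probe set 1636099_s_at had 0.55 and 0.41, but its readings (4.18 to 5.14) lay below the brightest Bacillus control. Probe set 1641114_at had 0.62 and 0.50, but there LacZ replicate 1 (8.02) exceeded CG9740 replicate 1 (7.92). The differences of the other 3 lay between -0.13 and 0.10.

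The clearest separation of arrays in the set was that of Kap-alpha3, an importin alpha that carries proteins with a nuclear localisation signal into the nucleus. Kap-alpha3 (1635566_s_at) read 7.40 and 7.42 in CG9740 RNAi and 7.51 and 7.55 in CP190 RNAi, against 6.40 and 6.18 in LacZ RNAi. The knockdown arrays lay within a narrow band, and the lowest of them stood 1.0 above the higher LacZ array. Its mean differences were 1.12 with CG9740 knockdown (2.18-fold) and 1.25 with CP190 knockdown (2.37-fold), and 1.01 and 1.14 without LacZ replicate 2. The ending _s_at of this probe set marks probes that match transcripts of more than 1 gene, although the annotation names Kap-alpha3 alone. Of the members 12 have this ending, among them those of mlt, CG9399, slow and TP53INP. A second importin alpha gene, Kap-alpha1, differed by -0.07 with CG9740 knockdown and 0.02 with CP190 knockdown.

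Kap-alpha3 was grouped with 2 genes of tubulin and the cilium. The gene mlt encodes a relative of tubulin-binding cofactor E, which takes tubulin apart. It (1633975_s_at) read 7.54 and 7.86 in CG9740 RNAi and 7.79 and 7.46 in CP190 RNAi, against 6.74 and 6.76 in LacZ RNAi. IFT52, of the intraflagellar transport machinery that builds cilia, read 6.33 and 6.62 in CG9740 RNAi and 6.86 and 6.99 in CP190 RNAi, against 5.67 and 5.56 in LacZ RNAi. Both stood clear of the LacZ arrays, by 0.70 and 0.66, and in both the LacZ replicates lay close together. The differences of mlt were 0.95 (1.93-fold) and 0.87 (1.83-fold), and those of IFT52 were 0.86 and 1.31 with a LacZ level below the brightest Bacillus control. Across all members this gap had a median of 0.20 (0.00 to 1.0), was at least 0.4 in 10 and was under 0.1 in 24.

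**Figure D4:**
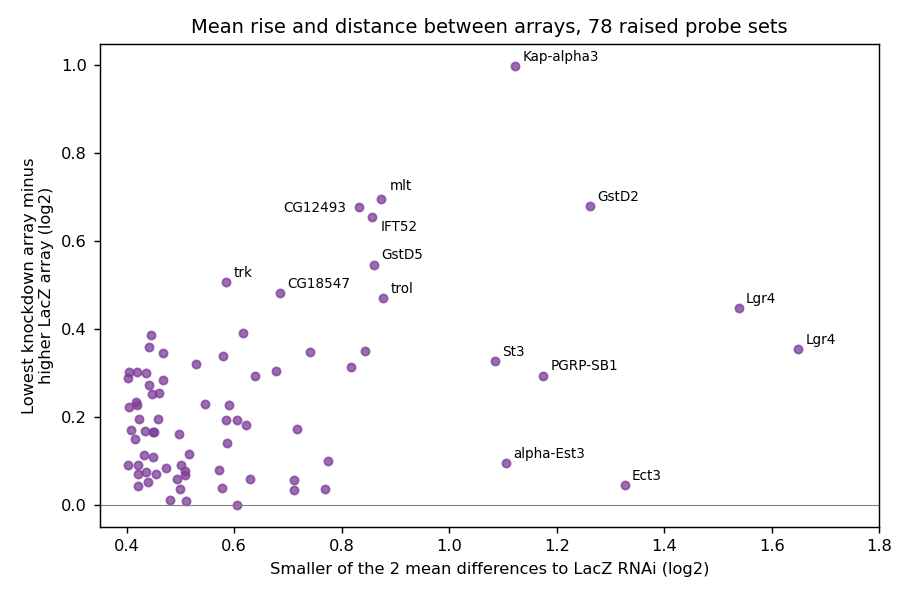
Mean difference and separation of arrays for the 78 members. The horizontal axis is the smaller of the 2 mean differences to LacZ RNAi and the vertical axis is the lowest knockdown array minus the higher LacZ array, both in log2 units, and each point is a probe set. Kap-alpha3 stands at the top with a gap of 1.0, while Ect3 has a smaller difference of 1.33 and a gap of 0.05.

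Named genes without a role given here made up 28 members, and 13 more members name no single gene. CG10621 (1626086_at) read 8.74 and 8.75 in CG9740 RNAi and 7.80 and 7.37 in CP190 RNAi, against 7.06 and 6.75 in LacZ RNAi, so the 3 groups did not overlap. Its differences were 1.84 (3.58-fold) with CG9740 knockdown and 0.68 (1.60-fold) with CP190 knockdown. CG12493 (1623258_at) read 6.85 and 7.11 in CG9740 RNAi and 7.41 and 6.88 in CP190 RNAi, against 6.12 and 6.17 in LacZ RNAi. CG12825 (1630003_at) read 8.19 and 8.85 in CG9740 RNAi and 8.73 and 8.23 in CP190 RNAi, against 7.84 and 7.43 in LacZ RNAi. CG4928 had differences of 0.92 and 0.77, and the CP190 value was 0.29 without LacZ replicate 2. Among members with no single gene, 1641211_at and 1624733_at ranked highest by the smaller of their 2 differences. Probe set 1641211_at had 1.15 and 0.77 (0.43 and 0.05 without LacZ replicate 2), and 1624733_at had 0.83 and 0.71 (0.32 and 0.21).

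Fitted across all probe sets, limma called few members at an adjusted p under 0.05. In CG9740 RNAi against LacZ RNAi it called 2 members, Kap-alpha3 and CG10621, where 0.0266% of all probe sets were called higher. In CP190 RNAi it called 2, Kap-alpha3 and IFT52, where 0.0373% were. At an unadjusted p under 0.05, 76 members passed in CG9740 RNAi (4.04% of all probe sets) and 66 in CP190 RNAi (4.48%). These comparisons chose the members, so nothing is read from these counts. Members called in CG9740 RNAi and CP190 RNAi numbered 1 and 0 with the replicate block as numbered, and 4 and 9 with a variance trend. With the CG9740 numbers of the block crossed, a choice made after seeing the data, called members numbered 22 and 30. With each array left out they numbered 0 to 12 in CG9740 RNAi, highest without CG9740 replicate 1, and 0 to 7 in CP190 RNAi, highest without either CG9740 array. The call of Kap-alpha3 in CG9740 RNAi was lost without CG9740 replicate 2 (difference 1.11), LacZ replicate 2 (1.01) or either CP190 array (1.12, as these arrays bear on it only through the common error estimate), and in CP190 RNAi without CP190 replicate 1 (1.27) or 2 (1.23). IFT52 lost its call without LacZ replicate 2 (1.26) and without CP190 replicate 1 (1.37) or 2 (1.25). CG10621 lost its call without LacZ replicate 2 (1.68) and without CG9740 replicate 2 (1.83).

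The direct comparison of CG9740 RNAi with CP190 RNAi is no contrast of the rule, but it is not independent of it. It reads the 4 knockdown arrays that the rule required to be high, and its error estimate comes from all 6 arrays. Its values are therefore given as a description. Over the members the difference, CG9740 minus CP190, had a median of 0.04 (-0.99 to 1.16), against -0.01 over all probe sets. CG9740 RNAi had the higher mean in 50 members and CP190 RNAi in 28. Of the members limma called 0 in either direction, where 0.0799% of all probe sets were called. At an unadjusted p under 0.05 there were 5 members, which is 6.41% of members beside 4.64% of all probe sets. Of the 5, 1 was higher and 4 were lower in CG9740 RNAi (1.79% and 2.85% of all probe sets). Both CG9740 arrays lay above both CP190 arrays in 3 members (3.85%, beside 12.8% of all probe sets) and below both in 9 (11.5%, beside 18.2%). A missed threshold does not show that the knockdowns act alike, since 95% intervals were wide: that of Ect3, with a difference of 0.02, ran from -1.10 to 1.13, and that of GstD2, with 0.27, from -0.62 to 1.17. The interval of Kap-alpha3 was narrower, from -0.35 to 0.10 around -0.12.

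The 5 members that passed the unadjusted threshold differed as follows. CG10621 was 1.16 higher in CG9740 RNAi (95% interval 0.80 to 1.52, limma adjusted p 0.0613), with both CG9740 arrays above both CP190 arrays. Cyp12c1 read 5.19 and 6.19 in CG9740 RNAi and 6.98 and 6.37 in CP190 RNAi, against 5.13 and 4.99 in LacZ RNAi, so CG9740 replicate 1 lay near the LacZ arrays. Its direct difference was -0.99 (-1.69 to -0.29, limma adjusted p 0.882). CG43103 (1623327_at) read 8.35 and 8.82 in CG9740 RNAi and 9.20 and 9.07 in CP190 RNAi, against 8.12 and 7.87 in LacZ RNAi, with a direct difference of -0.55 (-0.91 to -0.18, limma adjusted p 0.842). IFT52 had -0.46 (-0.72 to -0.19, limma adjusted p 0.675) and Nrg -0.42 (-0.69 to -0.14, limma adjusted p 0.838).

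The next members by size included CG11378, at -0.37 (-0.79 to 0.05), and on the CG9740 side PGRP-SB1 at 0.80 (-0.66 to 2.26), slow at 0.43 (-0.16 to 1.02), 1626171_at at 0.43 (-0.26 to 1.11) and Lgr4 1638557_at at 0.39 (-0.85 to 1.62). These CG9740-side differences came with wide replicate spread. Without CG9740 replicate 2 the direct difference turned to -0.28 for PGRP-SB1, -0.058 for slow and -0.31 for Lgr4 1638557_at. CG10621 passed the adjusted threshold without either LacZ array (limma adjusted p 0.0482 each), which bear on it only through the common error estimate.

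Some member genes lie side by side. How often measured genes chosen without regard to the rule do so was not worked out, so the counts are a description. By the gene order of the Release 6 assembly, each member gene was paired with the next member gene along its arm. Of these pairs, 8 have at most 4 genes between them, and 3 of the 8 are direct neighbours. Positions were not printed because the sources used here do not name the build behind the array annotation. All 8 pairs lie on arm 3R except slow and TP53INP, which lie on 3L. Neighbouring genes with similar sequence, such as those of the GstD cluster, can share probes, and reads of paralogs by 1 probe set cannot be told apart here.

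The GstD cluster on 3R holds 4 members among 11 measured GstD genes. Of the 11, 10 had means above LacZ RNAi in both knockdowns, with median differences of 0.61 with CG9740 knockdown and 0.42 with CP190 knockdown, and limma called 0. The rule fixed this for the 4 members. Of the other 7, 6 had means above LacZ RNAi in both knockdowns, beside 32.1% of all probe sets. The medians of the 7 were 0.48 with CG9740 knockdown and 0.20 with CP190 knockdown. Among them only GstD6 had all 4 knockdown arrays above both LacZ arrays. GstD9 had differences of 0.48 and 0.09, and GstD10 had 0.44 and 0.04. GstD4 (differences 0.56 and 0.69) and GstD6 (0.61 and 0.20) lay below the level minimum of 6, and each missed another condition too. In GstD4 LacZ replicate 1 (5.32) exceeded CG9740 replicate 1 (5.24), and in GstD6 the CP190 difference fell short of 0.4. GstD7 read 7.92 and 8.79 in CG9740 RNAi and 8.58 and 8.22 in CP190 RNAi, against 8.18 and 7.14 in LacZ RNAi, so its LacZ replicate 1 overlapped the knockdown arrays and kept it out of the set (0.69 and 0.74). GstD8, at -0.09 and 0.21, and GstD11, at 0.05 and 0.11, differed least in CG9740 RNAi. The Epsilon class (GstE, 14 probe sets of 13 genes) held no member, with medians of 0.11 and 0.10. Of its 14 probe sets, 6 had means above LacZ RNAi in both knockdowns. The other GST genes (11 probe sets of 10 genes) held none, with medians of 0.13 and 0.19. All 11 of their probe sets had means above LacZ RNAi in both knockdowns, so that direction is not particular to the GstD cluster. These families were picked after the members were seen.

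A second run of neighbours on 3R is CG9396, CG9399 and Kap-alpha3, which are 3 consecutive genes. The probe sets of CG9399 and Kap-alpha3 end in _s_at, so each may also read transcripts of another gene. CG9396 read 6.15 and 6.49 in CG9740 RNAi and 6.40 and 6.32 in CP190 RNAi, against 5.97 and 5.43 in LacZ RNAi (0.62 and 0.66). CG9399 read 9.44 and 9.82 in CG9740 RNAi and 9.60 and 9.54 in CP190 RNAi, against 9.37 and 8.86 in LacZ RNAi (0.52 and 0.45). In both, LacZ replicate 1 lay near the knockdown arrays, unlike in Kap-alpha3. On one side of the run CG16790 had differences of 0.26 and 0.06. On the other side Son, the direct neighbour of Kap-alpha3, had 0.03 and -0.06, and the gene after it, CG8301, had 0.78 and 0.81. CG8301 read 5.37 and 5.73 in CG9740 RNAi and 5.56 and 5.61 in CP190 RNAi, against 4.75 and 4.79 in LacZ RNAi, and lay below the level minimum.

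**Figure D5:**
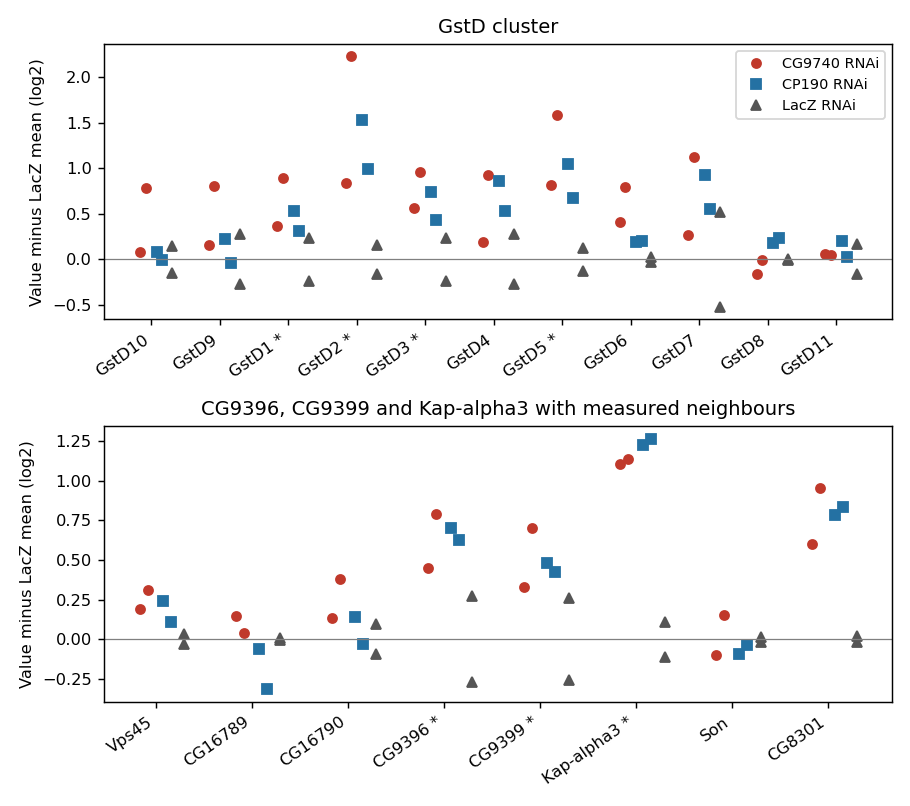
Measured genes of the GstD cluster (top) and around Kap-alpha3 (bottom), in chromosomal order with equal spacing. The vertical axis is the log2 value minus the LacZ mean, each point is an array, and asterisks mark members. In the GstD cluster GstD2 and GstD5 stand highest, and in the lower panel Kap-alpha3 and CG8301 have both LacZ arrays well below all knockdown arrays while Son, between them, does not.

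The measured genes between the other near pairs had smaller differences than the members beside them, and Syx17, mfas and Tk, which also lie between such pairs, were not analysed here. Between slow and TP53INP, which had differences of 0.57 and 0.47, CG15019 had 0.03 and -0.05. CG18547 (0.77 and 0.68) and Ect3 have 4 genes between them, of which CG12224 had -0.08 and -0.01 and CG3397 had 0.36 and 0.35 at a level below the minimum. Between CG34409 (0.42 and 0.58) and Rpt3R (0.43 and 0.42) the measured genes differed by -0.01 to 0.18 with CG9740 knockdown and by -0.06 to 0.27 with CP190 knockdown. Such intervening values were not tested as a group.

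By chromosome arm, 17 of the 61 member genes (27.9%) lie on X, where 15.7% of the measured genes lie. Arm 3R holds 16 (26.2%, beside 25.0%), 2R holds 12 (19.7%, beside 20.4%), 3L holds 9 (14.8%, beside 19.7%) and 2L holds 7 (11.5%, beside 18.5%). Lgr4, trol, Tob, Rph and Nrg are among those on X. These shares are a description and were not tested.

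Of 13 gene lists and 5 marker lists, 2 held members. The list of oxidative stress and detoxification genes, 28 probe sets of 26 genes, held 4, the GstD genes above. Its median difference was 0.18 with CG9740 knockdown and 0.10 with CP190 knockdown, beside -0.02 and -0.01 over all probe sets. These medians include the 4 members, which the rule selected for being higher, so nothing is read from them. In this list limma called 0 probe sets in CG9740 RNAi and 1 in CP190 RNAi, the peroxiredoxin gene Prx6c, which fell (log2 -0.92, limma adjusted p 0.0280). It read 5.40 and 5.29 in CP190 RNAi, against 6.37 and 6.16 in LacZ RNAi. Its call was lost without CP190 replicate 1 (-0.97) or 2 (-0.86) and without LacZ replicate 1 (-0.82) or 2 (-1.02). The oxidative stress regulators cnc and Keap1 and the catalase gene Cat are no members. Cat read 11.45 and 11.48 in CG9740 RNAi and 11.52 and 11.68 in CP190 RNAi, against 11.47 and 11.31 in LacZ RNAi, so the CG9740 arrays overlapped LacZ RNAi.

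The list of extracellular matrix and adhesion genes, 30 probe sets of 18 genes, held 4 members from trol and Nrg. Its median difference, with those 4 selected members included, was -0.15 with CG9740 knockdown and 0.02 with CP190 knockdown, and limma called 0 in both. Col4a1 and LanB1, like Cat above, were named after their values were seen. Col4a1, a type IV collagen, read 9.37 and 8.47 in CG9740 RNAi and 9.40 and 9.76 in CP190 RNAi, against 9.78 and 9.98 in LacZ RNAi. LanB1, a laminin chain, read 11.50 and 11.18 in CG9740 RNAi and 11.40 and 11.48 in CP190 RNAi, against 11.46 and 11.38 in LacZ RNAi. Among the insulator proteins limma called Ibf2 lower and Ibf1 higher in CG9740 RNAi and Cp190 lower in CP190 RNAi. The other 10 gene lists held no member and had 0 calls, among them RNA interference, heat shock, the unfolded protein response, JNK and apoptosis, ecdysone response and the hox genes.

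At the edges of the rule the choice was fine. Just inside the difference of 0.4 stood CG4592, CG1637 and Nrg with smaller differences of 0.40, and just outside stood Tsf3 and TrxT, whose values round to 0.40 but fall below it, and Mct1 at 0.39. Just inside the level of 6 stood slow, CG12766 and 1627232_at with highest group means of 6.16, 6.22 and 6.24, and just outside stood Cp7Fc, EndoU and bol with 5.93, 5.91 and 5.84. A difference of 0.3 would give 149 members, 0.5 would give 43 and 1 would give 8.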

How the data were processed

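Expression was measured on Affymetrix arrays in 6 samples of S2 cells. The authors used GCOS and RMA, per the submitters' processing notes, and deposited a table of log2 values with 18952 probe sets and 6 arrays. The sources used here do not give the implementation or version of RMA. RMA shrinks differences of dim probe sets and makes array distributions alike, so a shift common to all transcripts would not be seen. The 183 control probe sets were left out, and all 6 deposited columns were used (0 columns unmatched). The number of arrays limits the precision.

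A linear model with 3 group means was fitted to all 6 arrays with limma 3.58.1 in R 4.3.3 (functions lmFit, contrasts.fit and eBayes), which gave 3 residual and 5.05 prior degrees of freedom. Two-sided p-values were adjusted by Benjamini-Hochberg over 18769 probe sets, and an adjusted p under 0.05 was called. Intervals are 95% intervals of that fit. The fit was tested on simulated arrays with independent noise. The changes added there were larger than the differences of most members, so that test does not cover differences of their size. Counts and figures were made with Python 3.11.15, pandas 2.3.3 and matplotlib 3.10.9.

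Probe sets were named through the platform's annotation, updated by gene identifier to symbols of the Release 6 RefSeq table. Of the tested probe sets 13646 name 1 gene, 402 several and 4721 none, and 13544 have a gene identifier found in that table. Genes were named from probe sets with 1 gene only.

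The members and gene lists were chosen with earlier results of these data known. Named are the 20 members with the highest smaller difference, all called members, the 3 probe sets on each side of each threshold, members in a gene list, with several probe sets or with near neighbours, and the 5 largest direct differences each way. Other members were named for their role after their values were seen. Alternatives covered normalization, a replicate block, the dim filter, the variance model, control probe sets, the thresholds of the rule and each array left out. Added after seeing the data were a gap of 0.2 between arrays, a block with crossed numbers and the removal of 2 arrays together. The promoter motif search was not run, because no sequence was at hand.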

Additional observations from a re-analysis of the deposited data

How the results depend on the processing

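The number of members (78) was 149, 43 and 8 with mean differences of at least 0.3, 0.5 and 1, 133 with no condition on single arrays, 37 with a gap of at least 0.2, 24 with CG9740 replicate 2 and LacZ replicate 2 left out together, and 42 to 279 with each array left out. Quantile normalization and median centring gave 64 and 89. Counts of limma calls in CG9740 against LacZ RNAi, CP190 against LacZ RNAi and CG9740 against CP190 RNAi were 8, 15 and 15. With a variance trend and robust prior they were 13, 53 and 38. The dim filter gave 8 in CP190 RNAi, and leaving out the 2 arrays together gave 52 there and 39 in the direct comparison. With each array left out they ran from 3 to 43, 0 to 37 and 3 to 21; the 0, without CP190 replicate 1, had 1215 at an unadjusted p under 0.05. The cause of these changes was not tested, beyond fewer samples and probe sets.

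Nothing showed that equal replicate numbers pair arrays, since their deviations from the group means correlated at -0.191 between CG9740 and CP190, -0.315 between CG9740 and LacZ and 0.155 between CP190 and LacZ. Calls with the replicate block were 4, 2 and 4, without those of Kap-alpha3, IFT52, Ibf1 and Prx6c. A block with the CG9740 numbers crossed, a choice made after seeing the data, gave 72, 134 and 43. Without CG9740 replicate 2, also with LacZ replicate 2 left out, direct differences turned to -0.31 for Lgr4 1638557_at, -0.058 for slow and -0.28 for PGRP-SB1; with each array left out they ran up to 1.08, 0.912 and 1.88. With both left out, those of Cyp12c1 (-1.49, limma adjusted p 0.0145) and CG43103 (-0.78, limma adjusted p 0.0366) passed. CG10621 passed in the direct comparison with the variance trend (limma adjusted p 0.0145), with the crossed block (0.00717) and with the 2 arrays left out (0.0199).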

Other observations

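The cytochrome P450 genes were measured as a family of 85 probe sets for 83 genes, of which Cyp12c1 and Cyp6t1 are members. Their median difference to LacZ RNAi was 0.00 with CG9740 knockdown and 0.01 with CP190 knockdown, and 38 (44.7%) had means above LacZ RNAi in both, beside 32.1% of all probe sets. Without the 2 members it was 36 of 83 (43.4%). One list gene of this family, Cyp6a8 (1640755_at), chosen after its values were seen, read 7.14 and 8.77 in CG9740 RNAi and 7.54 and 7.03 in CP190 RNAi, against 7.36 and 6.65 in LacZ RNAi, so the groups overlapped and CG9740 replicate 2 alone stood apart. The 8 measured alpha-esterase genes held 1 member, with median differences of 0.07 and 0.19. These families were picked after the members were seen.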
